A study of Mus musculus with 2 samples.

Results

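The endoplasmic reticulum chaperones of basal vomeronasal neurons were followed as 10 named genes, Hspa5, Hsp90b1, Dnajb11, Sdf2l1, Creld2, Calr4, Calr, Canx, Pdia4 and Ero1lb, among 32285 genes counted in 2 single cell libraries of the vomeronasal organ (VNO). The genes were fixed by name, with earlier results of these data known, and all 10 were found in the count tables. They were described in 6 cell groups, which were mature and immature neurons with Gnao1, mature and immature neurons with Gnai2, gland cells and B cells. All are annotated as protein coding. In the GENCODE annotation of mm10, Hspa5 lies at chr2:34771970-34777547, Hsp90b1 at chr10:86690209-86705509, Dnajb11 at chr16:22857845-22879634, Sdf2l1 at chr16:17130138-17132383 and Creld2 at chr15:88819646-88826683. Calr4 lies at chr4:109234485-109254571, Calr at chr8:84841850-84846934, Canx at chr11:50293961-50325673, Pdia4 at chr6:47796141-47813430 and Ero1lb at chr13:12565874-12611396. All cells came from wild-type C57BL/6J males at postnatal day 60. The dissociated cells of 5 vomeronasal organs were frozen, thawed and run as 2 droplet captures with no treatment. The 2 captures are the only replicates, and how the organs were divided between them was not given, so the p-values below measure the spread between captures, which may be technical.

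Membrane and secreted proteins fold in the endoplasmic reticulum (ER), where Hsp70 and Hsp90 family chaperones hold unfolded chains, lectin chaperones hold glycoproteins and oxidoreductases form disulfide bonds. When unfolded proteins build up, sensors of the unfolded protein response raise the genes of these helpers, partly through a promoter sequence named the ER stress response element. Vomeronasal sensory neurons (VSNs) fall into an apical type, with the G protein subunit gene Gnai2 and V1R receptors, and a basal type, with Gnao1 and V2R receptors, whose long extracellular domain has to fold in the ER.

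Of 24084 barcodes deposited, 10592 passed the filters on genes and mitochondrial UMIs (unique molecular identifiers, each counting 1 captured RNA molecule). Mature Gnao1 neurons numbered 39 and 37 cells in libraries 1 and 2, immature Gnao1 neurons 41 and 30, mature Gnai2 neurons 291 and 234, immature Gnai2 neurons 129 and 106, gland cells 235 and 241, and B cells 31 and 18. Median depth ran from 2367 UMIs a cell in B cells to 17711 in mature Gnao1 neurons. A neuron was placed by its own Gnao1 and Gnai2 UMIs and by its Omp (mature) and Gap43 (immature) UMIs, so none of the 10 genes took part in the gates. Genes outside the gates were read as a check. Tfap2e, a transcription factor of basal neurons, was higher in Gnao1 neurons by 5.97 on the log2 scale among mature neurons and by 3.69 among immature ones, and Meis2, a factor of apical neurons, was lower (log2 −6.32 and −6.60). The libraries shared 33 barcode sequences, 3 of them among cells kept, and 68 and 104 cells were called doublets. Markers of other cell types were read in the same groups. All 9 B cell markers had 0 UMIs in mature and immature Gnao1 neurons. The 7 plasma cell markers summed to 14.7 and 11.9 CPM (counts per 1000000 UMIs) in mature Gnao1 neurons, most of it Sdc1, against 3.62 and 6.87 CPM in mature Gnai2 neurons, with Igha, Ighg1, Ighg2b and Tnfrsf17 at 0 in the former. In B cells they summed to 86746 and 53493 CPM. Of 11 gland markers, 5 had a UMI in mature Gnao1 neurons, with sums of 499 and 364 CPM against 744 and 424 CPM in mature Gnai2 neurons. The 6 macrophage markers summed to 14.7 and 47.6 CPM in mature Gnao1 neurons and to 80.1 and 217 CPM in mature Gnai2 neurons, of which 31 cells lay in a subcluster led by macrophage genes. Among immature neurons they summed to 28.80 and 29.96 CPM with Gnao1 and to 367 and 359 CPM with Gnai2, and the gland markers to 684 and 1365 CPM with Gnao1 and 767 and 610 CPM with Gnai2. The part of these RNAs in the results was not tested.

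Promoters of 5 of the 10 genes are shown first, because the stress element that joins many ER chaperone genes can be read in them. The sequences are from RefSeq on GRCm38.p6, which is the mm10 build of the count tables, and all 10 genes matched. Each line holds the 250 bases before the start of transcription, 5′ to 3′ on the strand of the gene, for Hspa5 (chr2:34771840-34772089, plus strand), Hsp90b1 (chr10:86705445-86705694, minus strand), Calr4 (chr4:109218163-109218412, plus strand), Calr (chr8:84846932-84847181, minus strand) and Sdf2l1 (chr16:17132384-17132633, minus strand). Capitals mark the ER stress response element, which is CCAAT and CCACG with any 9 bases between them, read on either strand. The first 4 genes were chosen to show the element in both Hsp family chaperones and both calreticulins, and Sdf2l1 to show a promoter without it.
Hspa5: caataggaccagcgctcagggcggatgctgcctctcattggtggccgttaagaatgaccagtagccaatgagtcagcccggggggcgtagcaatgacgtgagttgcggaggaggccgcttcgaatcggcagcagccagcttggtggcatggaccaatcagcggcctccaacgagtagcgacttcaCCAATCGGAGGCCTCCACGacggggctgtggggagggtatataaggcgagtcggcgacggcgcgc
Hsp90b1: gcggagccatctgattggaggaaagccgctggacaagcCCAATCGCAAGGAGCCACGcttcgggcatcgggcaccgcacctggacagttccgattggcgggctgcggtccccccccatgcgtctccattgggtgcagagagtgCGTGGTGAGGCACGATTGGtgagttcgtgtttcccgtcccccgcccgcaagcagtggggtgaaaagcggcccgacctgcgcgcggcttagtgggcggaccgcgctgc
Calr4: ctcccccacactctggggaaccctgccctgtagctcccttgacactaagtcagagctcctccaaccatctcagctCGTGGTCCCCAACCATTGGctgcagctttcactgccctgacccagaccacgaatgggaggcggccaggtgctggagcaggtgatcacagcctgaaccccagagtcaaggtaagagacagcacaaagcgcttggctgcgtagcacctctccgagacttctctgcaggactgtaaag
Calr: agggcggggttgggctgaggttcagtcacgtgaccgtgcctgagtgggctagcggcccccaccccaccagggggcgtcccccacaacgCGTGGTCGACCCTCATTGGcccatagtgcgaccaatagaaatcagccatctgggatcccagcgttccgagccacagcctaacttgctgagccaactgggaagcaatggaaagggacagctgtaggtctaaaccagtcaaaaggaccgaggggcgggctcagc
Sdf2l1: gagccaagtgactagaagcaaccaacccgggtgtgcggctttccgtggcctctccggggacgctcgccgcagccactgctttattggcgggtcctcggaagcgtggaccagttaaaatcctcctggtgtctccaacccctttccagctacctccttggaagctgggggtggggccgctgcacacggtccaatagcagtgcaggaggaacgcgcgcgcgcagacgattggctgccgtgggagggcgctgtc

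Hspa5 carries the element 46 bases before its start, and Hsp90b1 carries 2 of them, 193 and 88 bases before its start. In windows that also take in 50 bases after the start, 7 of the 10 promoters held the element (Hspa5, Hsp90b1, Creld2, Calr4, Calr, Canx and Ero1lb), against 35 of 27025 promoters in the table (0.130%), with the first listed promoter taken for each gene. Among the ER genes listed for comparison, the 10 members included, 11 of 114 held it (9.65%). Calr and Calr4, whose levels differed in opposite directions between the 2 sides among mature neurons, both carry the element. The Calr4 element lies before the first of 4 starts listed by RefSeq, 16072 bases ahead of the start of the gene in the GENCODE annotation, and the promoters of the other listed starts do not hold it. The related element of ATTGG and CCACG with any 1 base between them was found in Dnajb11 alone of the 10 and in 0.0370% of all promoters. The sequence TGACGTGG was in none of the 10 and in 0.607% of all, and CCACG, which is part of both ER stress response elements, was in 10 of 10 and in 32.7% of all. A match describes these letters only and is not a site of binding.

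As a share of all UMIs, the 10 genes made up 0.745% and 0.712% of mature Gnao1 neurons in libraries 1 and 2, and 0.614% and 0.503% of immature Gnao1 neurons. Mature Gnai2 neurons gave 0.283% and 0.278% and immature Gnai2 neurons 0.143% and 0.146%. Every value of the Gnao1 neurons was thus above every value of the Gnai2 neurons. Gland cells, which secrete lipocalins, gave 0.214% and 0.229%, and B cells 0.270% and 0.595%, so that B cells of library 2 reached the range of immature Gnao1 neurons. Among the other 11 cell groups named from markers, the share ran from 0.107% on average in neutrophil-like cells to 0.280% in ciliated-like cells. The remaining ER genes of the comparison lists, without the 10, took 2.85% and 2.79% of UMIs in mature Gnao1 neurons and 1.58% and 1.59% in mature Gnai2 neurons. Chaperones of the cytosol and mitochondria took 0.943% and 0.926% against 0.940% and 0.865%, so that the shares of both sides lay close together for them.

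**Figure D1:**
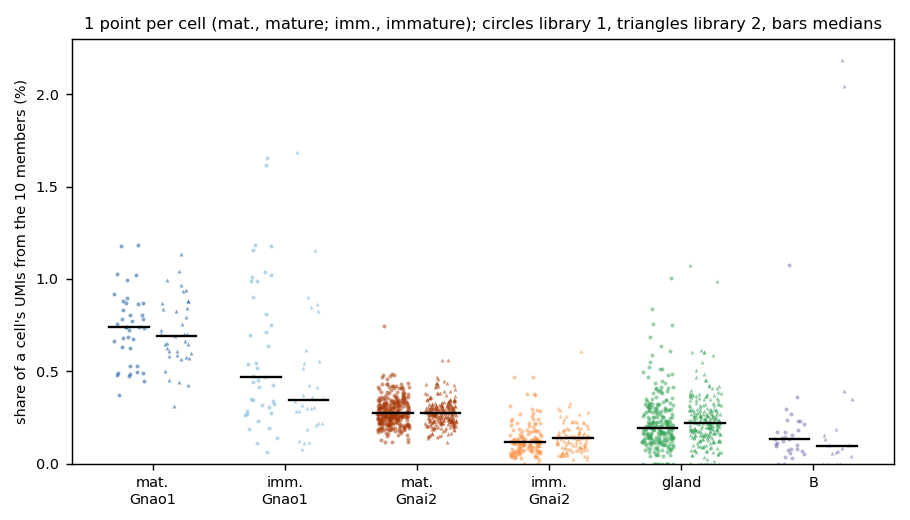
Share of each cell's UMIs from the 10 ER chaperone genes, in percent, by cell group. Each point is 1 cell (circles library 1, triangles library 2) and bars are medians within a library, which stand at 0.740% and 0.694% in mature Gnao1 neurons and at 0.273% and 0.275% in mature Gnai2 neurons.

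Within groups, single cells varied around these sums. In mature Gnao1 neurons the share per cell ran from 0.370% to 1.18% in library 1 and from 0.313% to 1.14% in library 2. In mature Gnai2 neurons 90% of the cells stayed at or below 0.383% and 0.365%. In mature Gnao1 neurons 90% of the cells stood at or above 0.484% and 0.482%, so most cells of the mature sides did not overlap. Immature Gnao1 neurons had the widest spread among the neurons, from 0.0615% to 1.65% and from 0.0770% to 1.69%, with medians of 0.470% and 0.347%. In B cells the medians were low, 0.132% and 0.0940%, while the highest single cells reached 1.08% and 2.19%.

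The first comparison asks how the members differ between basal and apical neurons once both are mature. Of the 10, 6 were higher in mature Gnao1 neurons (Sdf2l1, Creld2, Calr4, Hspa5, Hsp90b1 and Dnajb11), 1 was lower (Calr), and Canx, Ero1lb and Pdia4 did not pass an adjusted p of 0.05. In the same fit 7.65% of 13409 genes were called, 3.93% higher and 3.72% lower. The median difference of the 10 was 1.10 on the log2 scale, against −0.14 for all genes tested. The 10 were chosen with earlier results of these data known. Their excess over all genes, here and among immature neurons, is therefore not independent evidence. When the library was a term of the fit, since cells of both groups share each capture, Canx (adjusted p = 0.0305) and Ero1lb (0.0192) were called as well, beside 1925 genes in place of 1026.

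**Figure D2:**
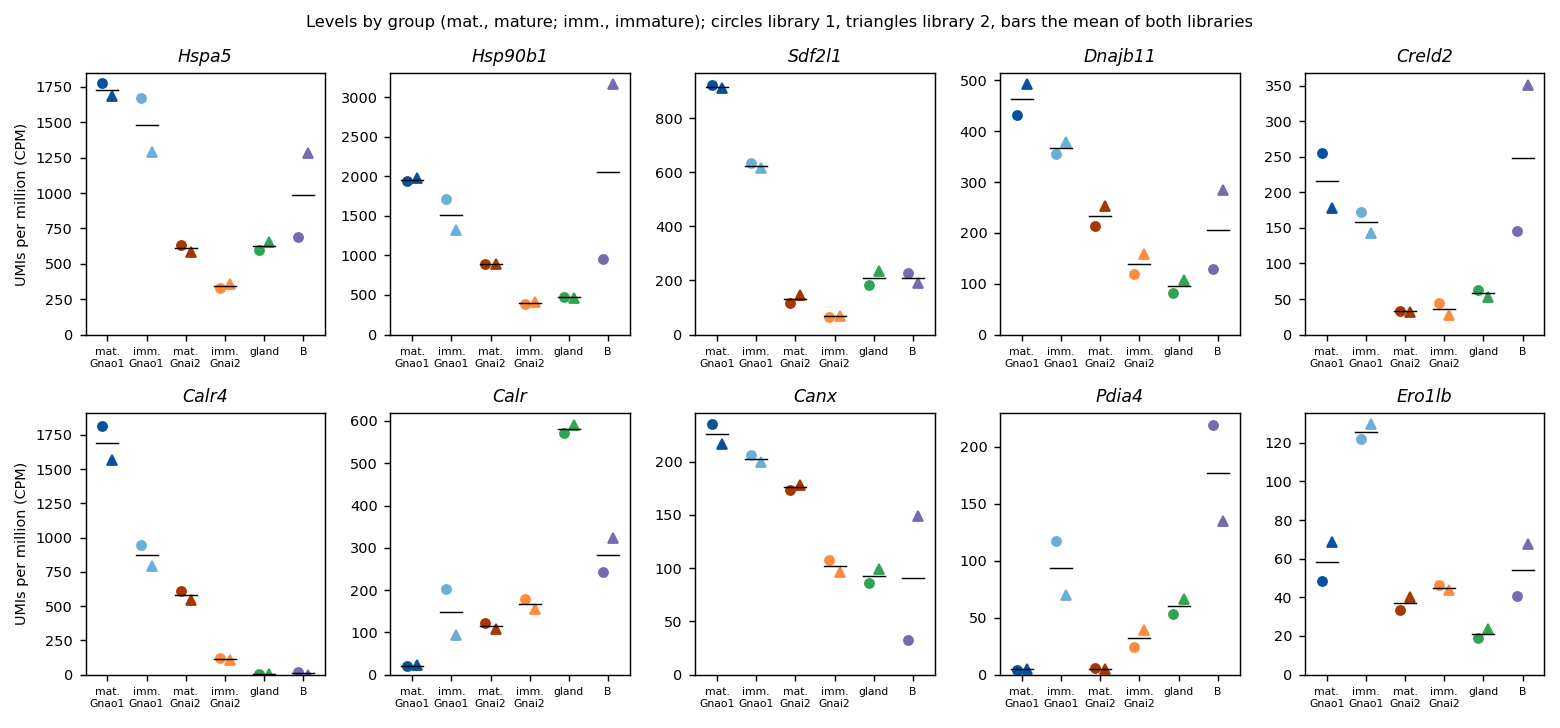
Level of each of the 10 genes in CPM (counts per 1000000 UMIs) in the 6 groups, with 1 point per library and a bar at the mean of both. Hspa5, Sdf2l1, Dnajb11 and Calr4 are highest in mature Gnao1 neurons, while Calr is lowest there (19.1 and 22.3 CPM), and the 2 B cell points lie far apart for Hsp90b1 (956 and 3162 CPM).

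The Hsp70 and Hsp90 chaperones and their helpers were higher on the basal than on the apical side. Hspa5 encodes BiP, the Hsp70 chaperone of the ER. It was at 1774 and 1683 CPM in mature Gnao1 neurons, 1675 and 1288 in immature Gnao1 neurons, 632 and 585 in mature Gnai2 neurons and 330 and 356 in immature Gnai2 neurons, with 595 and 657 in gland cells and 689 and 1284 in B cells. All 4 Gnao1 values were above all others, by a small margin over the B cells of library 2, and mature Gnai2 neurons and gland cells overlapped. The difference between mature Gnao1 and mature Gnai2 neurons was 1.54 ± 0.140 (log2, SE, n = 2 libraries per group, adjusted p = 3.97e-05).

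Hsp90b1 encodes GRP94, the Hsp90 chaperone of the ER. It was at 1939 and 1972 CPM in mature Gnao1 neurons and at 887 and 889 CPM in mature Gnai2 neurons, and its difference was 1.18 ± 0.133 (log2, SE, adjusted p = 0.000229). The immature groups were at 1714 and 1315 CPM on the Gnao1 side and 385 and 407 CPM on the Gnai2 side, and gland cells were at 481 and 456 CPM. B cells had the highest mean through library 2 alone (956 and 3162 CPM) and overlapped with mature Gnao1 neurons. Of the sequence words of 31 bases in its transcripts, 4.09% also occur in other genes, among them genes that overlap it.

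Sdf2l1 and Dnajb11 encode partners in 1 complex, in which Dnajb11 (ERdj3) is a J domain co-chaperone that brings unfolded chains to BiP. Sdf2l1 was at 923 and 910 CPM in mature Gnao1 neurons and at 116 and 147 in mature Gnai2 neurons, with 634 and 616 in immature Gnao1 neurons and 66.8 and 68.4 in immature Gnai2 neurons. This was the largest difference of the 10 among mature neurons, at 2.84 ± 0.126 (log2, SE, adjusted p = 2.03e-07). Gland cells (182 and 237 CPM) and B cells (227 and 189 CPM) overlapped and lay between the 2 sides. Dnajb11 was at 433 and 494 CPM against 214 and 252 CPM, a difference of 1.03 ± 0.136 (adjusted p = 0.000707). For Dnajb11 the groups fell in the order mature Gnao1, immature Gnao1 (354.4 and 379.5 CPM) and mature Gnai2 neurons, with B cells (130 and 284 CPM) overlapping both groups of Gnai2 neurons, and gland cells lowest (82.2 and 107 CPM).

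Creld2, an ER protein that is raised under ER stress, was at 255 and 178 CPM in mature Gnao1 neurons and at 33.5 and 31.7 in mature Gnai2 neurons. Immature Gnao1 neurons gave 173 and 143 CPM and immature Gnai2 neurons 43.94 and 26.97. The sides did not overlap at either stage, and the mature difference was 2.76 ± 0.242 (log2, SE, adjusted p = 2.91e-05). B cells, at 146 and 351 CPM, had the highest mean and overlapped with mature Gnao1 neurons.

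The lectin chaperones did not move as 1 group. Calr4, a homologue of calreticulin known from vomeronasal neurons, was at 1817 and 1567 CPM in mature Gnao1 neurons, 948 and 796 in immature Gnao1 neurons, 611 and 545 in mature Gnai2 neurons and 123 and 105 in immature Gnai2 neurons. No 2 of these 4 groups overlapped, and the mature difference was 1.58 ± 0.145 (log2, SE, adjusted p = 4.07e-05). Calr, the common calreticulin, was at 19.1 and 22.3 CPM (13 and 15 UMIs) in mature Gnao1 neurons and at 123 and 107 CPM in mature Gnai2 neurons. It was the 1 member called lower on the basal side, with a difference of −2.44 ± 0.347 (log2, SE, adjusted p = 0.00122). Immature neurons of both sides overlapped for Calr, at 202 and 93.2 CPM with Gnao1 and 178 and 156 CPM with Gnai2, and gland cells were highest of the 6 groups (572 and 590 CPM). Canx, the membrane-bound lectin chaperone calnexin, was at 236 and 217 CPM in mature Gnao1 neurons and 174 and 178 CPM in mature Gnai2 neurons. Its difference of 0.40 ± 0.132 did not pass in the main fit, which had no library term (adjusted p = 0.101). It was called in 5 of 16 alternative settings, among them the fit with that term.

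Of the UMIs assigned to either calreticulin, Calr4 held 98.8% in mature Gnao1 neurons (2288 of 2316, exact 95% interval 98.3 to 99.2) and 84.9% in immature Gnao1 neurons (82.2 to 87.3). On the apical side it held 83.4% (82.3 to 84.4) in mature and 40.5% (36.6 to 44.6) in immature neurons. In gland cells it was 0.529% (0.362 to 0.745) and in B cells 3.57%, from 2 of 56 UMIs. The intervals of the 2 stages did not overlap on either side, and they cover counting error only. How well the RNA of each of the 2 genes is captured and assigned was not tested, so the share compares groups and not the 2 genes. The transcripts of Calr4 share no word of 31 bases with any other gene, and those of Calr share 56 of 2902 with the pseudogene Calr-ps.

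The 2 genes of disulfide bond formation were not called between the mature sides in the main fit. Pdia4, a protein disulfide isomerase with several thioredoxin-like domains, was at 4.42 and 4.46 CPM in mature Gnao1 neurons (3 UMIs in each library) and 5.31 and 5.24 CPM in mature Gnai2 neurons. Its difference of −0.21 ± 0.575 on the log2 scale did not pass the test (adjusted p = 0.883). With an unnamed deep cluster added to the mature neurons, it was called lower on the basal side (−1.73, adjusted p = 0.0370). Ero1lb, an oxidase that keeps disulfide isomerases charged, was at 48.6 and 68.4 CPM against 33.5 and 40.3 CPM. Its difference of 0.70 ± 0.214 did not pass in the main fit (adjusted p = 0.0739). It was called in 6 of 16 alternative settings, among them the fit with the library term. Of the words of 31 bases in its transcripts, 11.5% also occur in other genes.

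**Figure D3:**
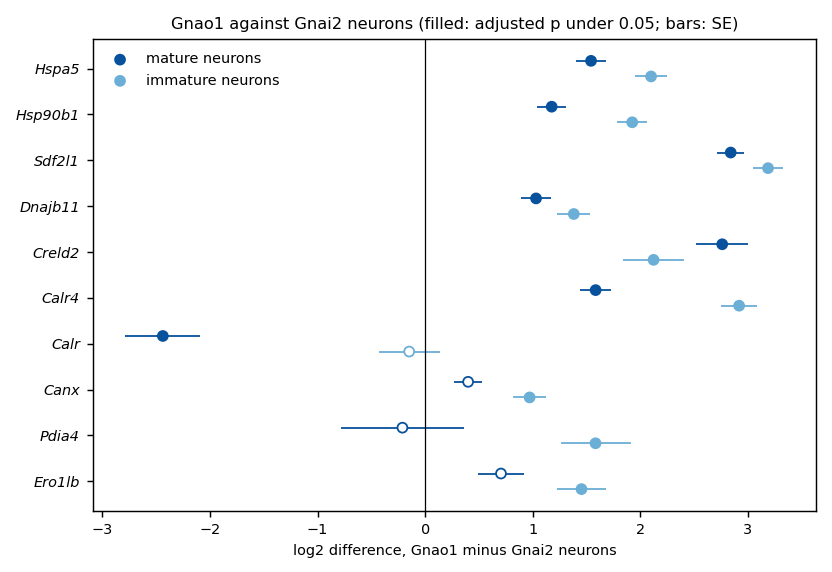
Difference between Gnao1 and Gnai2 neurons for each of the 10 genes, on the log2 scale with bars of 1 SE, for mature and immature neurons (filled points, adjusted p under 0.05). All points lie to the right of 0 except Calr at both stages and Pdia4 among mature neurons, and Calr4 shifts from 2.92 among immature to 1.58 among mature neurons.

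Among immature neurons, as gated, the side difference was already present. The 2 immature groups were not matched for stage. From a cluster with markers of neural precursors, 26 cells entered the immature Gnai2 group and 3 the immature Gnao1 group. Of 226 cells in the immature cluster with basal markers, 59 entered the immature Gnao1 group, and many others had mixed or few Gnao1 and Gnai2 UMIs. Of 234 cells in the other immature cluster, 188 entered the immature Gnai2 group. The part of these unequal gates in the differences below and in the changes with maturity was not tested. Of the 10 genes, 9 were higher in immature Gnao1 neurons and none lower, where 3.48% of the 13409 genes were called, 1.92% higher and 1.56% lower. The median of the 10 was 1.75 on the log2 scale, against −0.08 for all genes. Sdf2l1 led with 3.19 ± 0.144 (SE, adjusted p = 8.77e-07), followed by Calr4 with 2.92 ± 0.168 (4.33e-06), Creld2 with 2.12 ± 0.280 (0.00185), Hspa5 with 2.10 ± 0.149 (2.14e-05) and Hsp90b1 with 1.92 ± 0.142 (2.75e-05). Pdia4 and Ero1lb, which were not called among mature neurons in the main fit, were higher here. Pdia4 was at 117 and 69.9 CPM in immature Gnao1 neurons and at 24.5 and 39.4 CPM in immature Gnai2 neurons (log2 1.58 ± 0.325, adjusted p = 0.0230). The difference was uneven between captures, at 2.24 in library 1 and 0.80 in library 2. Ero1lb was at 122 and 130 CPM against 46.5 and 43.6 CPM (1.45 ± 0.224, adjusted p = 0.00462). Dnajb11 (1.38) and Canx (0.97) were called too, and Calr was not (−0.15 ± 0.283, adjusted p = 0.871). The macrophage markers were higher on the Gnai2 side here (367 and 359 against 28.80 and 29.96 CPM), and all 9 members stayed called once the 2 neuron subclusters with leading genes of other cells were left out. With the library as a term, 903 genes were called in place of 466 and the same 9 members.

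In cells thinned to 2158 UMIs each, Canx, Pdia4 and Ero1lb were no longer called among immature neurons. Their differences were 0.81 ± 0.356, 1.58 ± 0.619 and 0.94 ± 0.454 (log2, SE, adjusted p = 0.424, 0.325 and 0.489), so that Pdia4 kept its size with a larger error. With purer gates, at 90% in place of 75%, Creld2 (1.42, adjusted p = 0.126) and Pdia4 (1.09, 0.461) were not called. The other calls of both side comparisons held under all alternatives run.

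The change with maturity was read on each side. In Gnao1 neurons 4 of the 10 were higher in mature than in immature cells and 3 were lower, beside 19.3% of all genes called, 10.9% higher and 8.37% lower. In Gnai2 neurons 6 were higher and 1 was lower, beside 33.4% of all genes called, 18% higher and 15.4% lower. Calr4 rose on both sides, by 1.08 ± 0.149 in Gnao1 neurons (log2, SE, adjusted p = 0.000498) and by 2.41 ± 0.161 in Gnai2 neurons (1.51e-06). Sdf2l1 rose by 0.68 ± 0.124 (0.00294) and 1.03 ± 0.138 (0.000190), and Hsp90b1 by 0.49 ± 0.135 (0.0261) and 1.24 ± 0.137 (4.94e-05). Dnajb11 rose by 0.82 ± 0.141 in Gnai2 neurons (0.00106), and its 0.47 ± 0.145 in Gnao1 neurons was at the edge of the threshold (0.0429, and 0.0585 with DESeq2). Hspa5 and Canx were called in Gnai2 neurons (0.90 and 0.86) and not in Gnao1 neurons (0.35 and 0.29). Creld2 was called on neither side. With the library as a term, Creld2 (adjusted p = 0.0166) and Hspa5 (0.00599) were called in Gnao1 neurons and Calr (0.0161) in Gnai2 neurons. With gates at 90% Creld2 was at 1.64 (0.00587) and Hspa5 at 0.92 (0.0304) in Gnao1 neurons, in place of 0.57 and 0.35, and with groups from clusters alone at 0.80 (0.00604) and 0.63 (0.00335).

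Pdia4 fell most with maturity, with a difference of −4.28 ± 0.465 in Gnao1 neurons (log2, SE, adjusted p = 0.000101) and of −2.48 ± 0.348 in Gnai2 neurons (0.000261). In UMIs this was 74 in 71 immature Gnao1 cells and 6 in 76 mature ones, a ratio of levels of 22.2 (exact 95% interval 9.72 to 62.4, counting error only). Calr fell in Gnao1 neurons (−2.75 ± 0.375, adjusted p = 0.000459), where the 2 immature libraries were uneven (202 and 93.2 CPM) and both lay above the mature values. In Gnai2 neurons the Calr difference was −0.46 ± 0.251 (0.187). Ero1lb fell in Gnao1 neurons (−0.97 ± 0.228, adjusted p = 0.0123), from 122 and 130 to 48.6 and 68.4 CPM, and its difference in Gnai2 neurons was −0.22 ± 0.207 (0.452). The isomerase, the common calreticulin and the oxidase were thus lower in mature than in immature Gnao1 neurons, while Calr4, Sdf2l1, Hsp90b1 and Dnajb11 were higher. The Ero1lb call was lost in thinned cells (adjusted p = 0.649) and with purer gates (0.105), and the Pdia4 call in Gnai2 neurons was lost when an unnamed deep cluster with mature neuron markers was added (−0.53, adjusted p = 0.222).

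**Figure D4:**
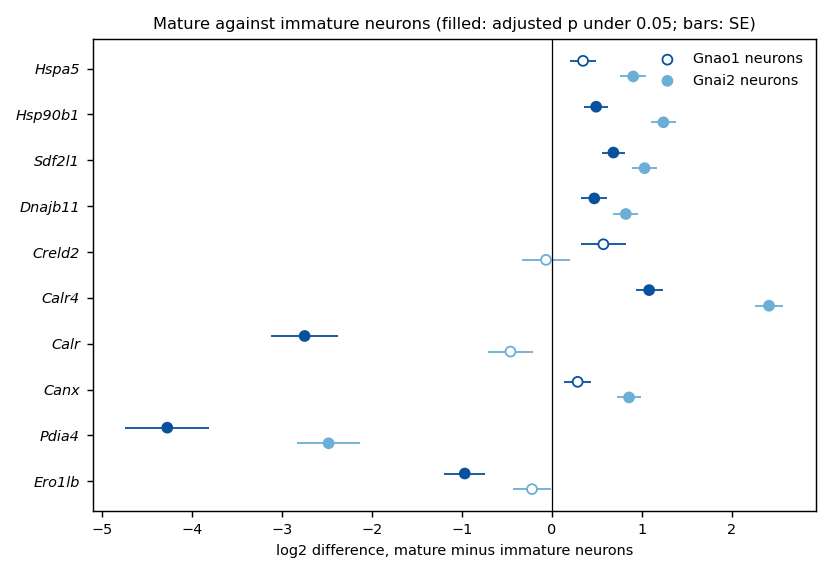
Difference between mature and immature neurons for each of the 10 genes, on the log2 scale with bars of 1 SE, in Gnao1 and in Gnai2 neurons (filled points, adjusted p under 0.05). Pdia4 lies farthest to the left on both sides (−4.28 and −2.48) and Calr4 farthest to the right (1.08 and 2.41).

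Whether the side difference itself changed with maturity was tested with an interaction term. Calr4 was the 1 member called, at −1.33 ± 0.217 (log2, SE, adjusted p = 0.0207), where 0.686% of genes were called, 0.336% in that direction and 0.351% in the other. Its basal excess was thus smaller among mature than among immature neurons, with −1.35 in library 1 and −1.31 in library 2, which is the same as a larger rise with maturity on the apical side (2.41 against 1.08). Calr had the largest estimate, −2.29 ± 0.457 (adjusted p = 0.0543). It was called in 9 of 16 alternative settings, and Calr4 in 12 of 16. With the library as a term, 412 genes were called in place of 92, among them Calr4, Calr (1.75e-05), Hsp90b1 (0.000708) and Hspa5 (0.0185), all with a negative interaction. For Calr the gap was larger among mature neurons, at −2.44 against −0.15 among immature neurons in the fit without that term. The Calr4 call was lost in thinned cells (−1.27, adjusted p = 0.0787), with gates at 60% (−1.11, 0.0680) and 90% (−1.09, 0.384) and with groups taken from clusters alone (−0.54, 0.175).

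To place the change within development, the neuron clusters were clustered again without the ER genes, and the subclusters were read as steps. These are descriptions without a test. The 10 genes took 0.168% and 0.150% of UMIs in a subcluster of 76 precursor cells, with Neurod1 and Neurog1 among its leading genes. On the basal side they took 0.225% and 0.192% in the earlier immature subcluster (101 cells, led by Gm16556, Prrxl1 and Tfap2e), 0.690% and 0.663% in the later immature subcluster (75 cells, led by Vmn2r95, Vmn2r80 and Vmn1r72) and 0.707% and 0.748% in the mature one (93 cells). On the apical side the steps gave 0.131% and 0.129%, then 0.212% and 0.207%, then 0.283% and 0.280%. The basal steps therefore had 1 large gap, between the earlier and the later immature subcluster, while the apical values climbed in smaller steps.

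**Figure D5:**
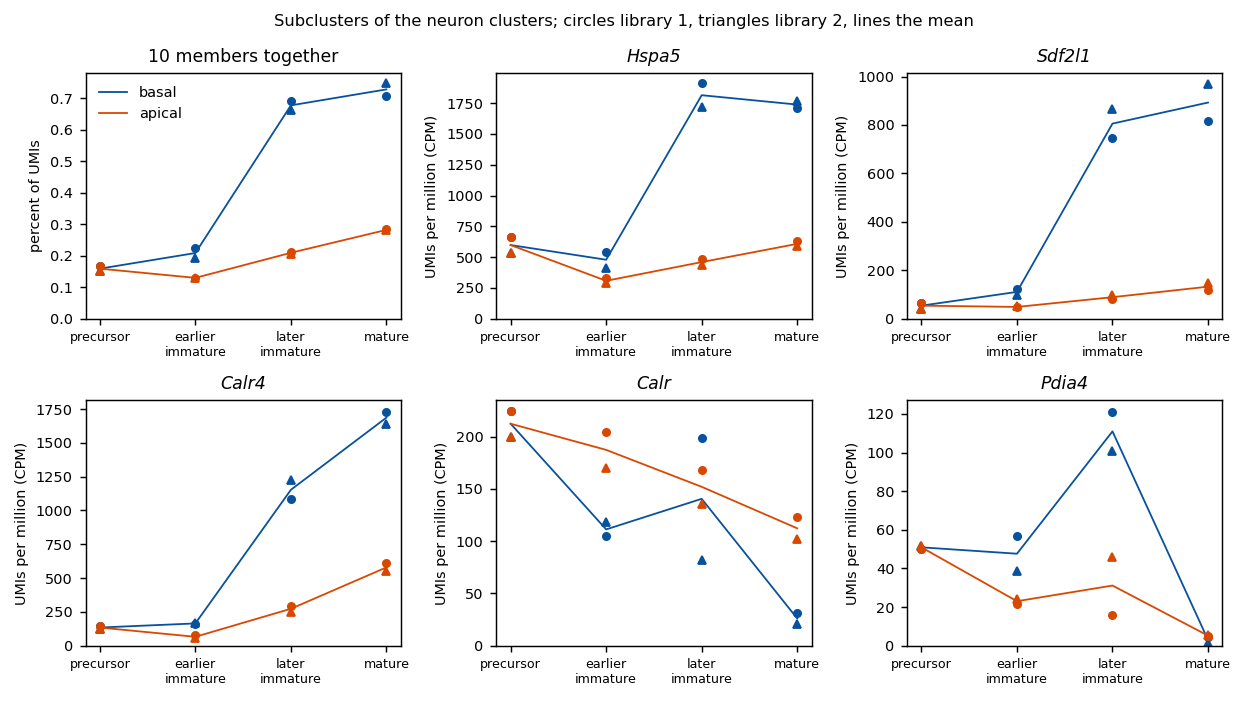
Share of UMIs from the 10 genes (percent) and levels of 5 of them (CPM) from the precursor subcluster, which both lines share, to the mature subclusters of the basal and the apical side, with 1 point per library and lines through the means. Basal Hspa5, Sdf2l1 and Calr4 are raised from the later immature step on, and basal Pdia4 peaks there (121 and 101 CPM).

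Calr4 stood at 159 and 170 CPM in the earlier and at 1084 and 1222 CPM in the later immature basal subcluster, and at 1732 and 1642 CPM in the mature one. Pdia4 was at 56.8 and 38.4 CPM, then at 121 and 101 CPM, then at 4.65 and 1.38 CPM in the same steps. Among these steps the isomerase was thus highest in the later immature and lowest in the mature one. Not all members rose with the sum. Ero1lb went from 209 and 178 CPM in the earlier to 96.5 and 81.9 CPM in the later immature subcluster, and Calr from 105 and 118 to 199 and 81.9 CPM, which overlapped.

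Other genes of the ER stood beside the members. Over 9 lists of ER functions without the 10 members, 43 of 125 genes tested were higher in mature Gnao1 than in mature Gnai2 neurons and 1 was lower, with a median of 0.46 on the log2 scale against −0.14 for all genes. Among immature neurons 38 of 125 were higher and none lower (median 0.57 against −0.08). Of 24 chaperones of the cytosol and mitochondria, none was higher at either stage and 1 was lower among mature neurons, Hsph1, an Hsp110 family chaperone (−1.87, adjusted p = 0.0275), which is near the share of all genes called (3.93% higher and 3.72% lower among mature, 1.92% and 1.56% among immature neurons). The lists were chosen with earlier results of these data known, so their direction is not independent evidence.

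Co-factors of BiP led the list of the Hsp70 and Hsp90 system, in which 5 of 15 genes beside the members were higher among mature and 3 among immature neurons. Dnajc3, a J domain co-chaperone, was higher by 2.54 among mature and 2.52 among immature neurons, Manf, a BiP-binding secreted factor, by 2.13 and 2.28, and Sil1, a nucleotide exchange factor of BiP, by 1.89 among mature neurons. Of 18 disulfide genes beside the members, 4 were higher among mature neurons and 4 among immature ones, with the isomerases Pdia6 (1.93 and 1.91), Pdia5 (1.67 and 3.20) and Pdia3 (1.06 and 1.54) at the head. Pdia4 itself was not called among mature neurons in the main fit (−0.21), and its difference from these genes was not tested. In the lectin list the 1 gene lower was Clgn, a calnexin homologue (−1.16, adjusted p = 0.000234), and Prkcsh, a subunit of glucosidase II, was higher among immature neurons (0.81). The prolyl isomerases Fkbp2 (1.51 and 1.39) and Ppib (0.91 and 0.88) were higher at both stages, where 2 of 7 in their list were called. The median of the 7 was 0.91 among mature and −3.10 among immature neurons. Among immature neurons 0 of the 7 were called lower, so the negative median rests on genes that did not pass the test.

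In 5 further lists of ER functions all calls were in the same direction, where 3.93% of all genes were called higher among mature and 1.92% among immature neurons. Of 15 genes of the translocon and signal peptidase, 7 were higher at each stage, led by the signal peptidase subunits Sec11c (1.58 and 1.24), Spcs2 (1.54 and 1.20) and Spcs3 (1.35 and 1.68). Of 12 genes of the oligosaccharyltransferase, which adds glycans, 7 and 8 were higher, with Magt1 (1.29 and 1.42), Krtcap2 and Stt3b (1.17 and 0.98, mature) and Rpn2 and Rpn1 (1.47 and 1.34, immature). In ER-associated degradation 6 and 5 of 18 were higher, with Selenos (1.53 and 1.71), the mannosidase-like Edem1 and Edem2 (1.60 and 1.21, mature), and Sel1l and Herpud1 (1.62 and 1.41, immature). For export and retrieval 8 and 5 of 17 were higher, with Tmed3 (1.31 and 1.01), the coat subunits Sec24d and Sec13 (1.51 and 1.40, mature), and Tmed10 and the KDEL receptor gene Kdelr2 (0.81 and 0.93, immature). Among 16 regulators of the unfolded protein response, 4 were higher among mature neurons, with Ddit3 (1.39), Creb3 (1.18) and the transcription factor Xbp1 (1.05), and 3 among immature ones, Creb3l2 (2.67), Trib3 (2.09) and Ddit3 (2.06). None in these 5 lists was called lower in either comparison.

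Gland cells served as a yardstick, since they secrete large amounts of protein. Beside 54.8% of 12445 genes called, 24.7% higher and 30.1% lower in mature Gnao1 neurons, 4 of the 10 members were higher (Calr4, Dnajb11, Sdf2l1 and Hsp90b1) and 2 lower (Calr and Pdia4), with a median of 0.33 on the log2 scale against −0.24 for all genes. Calr4 was at 2.81 and 3.41 CPM in gland cells (16 UMIs in each library), a difference of 7.72 ± 0.189 (SE, adjusted p = 8.22e-08). Lower in mature Gnao1 neurons were Calr (−6.16 ± 0.178, adjusted p = 1.37e-07) and Pdia4 (−5.08 ± 0.274, 1.50e-06), with Pdia4 at 53.5 and 66.6 CPM in gland cells. The 2 calreticulin genes thus took opposite places in the 2 cell types. The other differences were small in this scaling, with Dnajb11 at 0.94, Sdf2l1 at 0.78, Hsp90b1 at 0.70, Creld2 at 0.54 (adjusted p = 0.0516), Ero1lb at 0.11, Hspa5 at 0.11 and Canx at −0.06. Creld2 was called in 9 of 16 alternative settings, among them the fit with the library as a term (adjusted p = 0.00144). Of 124 other ER genes, 17 were higher and 69 lower in mature Gnao1 neurons, a count made in the TMM scaling only. As a share of all UMIs the direction was the other one. The ER genes outside the members took 2.85% and 2.79% in mature Gnao1 neurons and 1.665% and 1.805% in gland cells.

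The scaling weighs on this comparison. The TMM factors were 1.61 and 1.59 for mature Gnao1 neurons and 0.596 and 0.654 for gland cells. With total UMIs as the scaling the median of all genes moved from −0.24 to 1.11, all 10 members were called, and Canx changed sign, from −0.06 to 1.29 (adjusted p = 0.000135). Hspa5 was then at 1.47 and Creld2 at 1.90, while Calr (−4.80) and Pdia4 (−3.74) stayed lower. Of all calls 82.3% were then higher in mature Gnao1 neurons, against 3075 higher and 3748 lower with TMM. Under both scalings 8 members lay above the median of all genes and Calr and Pdia4 below it.

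B cells were few and their 2 libraries differed. The 6 macrophage markers summed to 40.5 CPM in library 1 and 2135 CPM in library 2, with C1qa at 8.11 and 824 CPM, and their part in the values of library 2 was not tested. Of the 10 members 2 were higher in mature Gnao1 neurons (Calr4 and Sdf2l1) and 2 lower (Calr and Pdia4), beside 20.8% of 9146 genes called, 13.1% higher and 7.71% lower, and their median of 0.12 was below that of all genes (0.78). Calr4 had 2 UMIs in library 1 and 0 in library 2, where a count of 0 allows up to 40.5 CPM, and the ratio of pooled levels was 167 (exact 95% interval 46.2 to 1380, counting error only). Sdf2l1 was higher by 1.71 ± 0.256 (log2, SE, adjusted p = 0.00943), while Calr (−4.13 ± 0.295, 0.00163) and Pdia4 (−5.69 ± 0.516, 0.00272) were lower. Of the 49 cells, 7 held UMIs of at least 2 plasma cell genes, such as Jchain and Igha. In these 7 cells Hsp90b1 was at 1974 and 6582 CPM and Creld2 at 329 and 687 CPM, against 223 and 102 CPM and 13.9 and 51.2 CPM in the others. Without the 7 cells, both genes were higher in mature Gnao1 neurons (log2 3.51 and 3.00), in place of −0.38 and −0.50 with them, and 9 members were called. With only the 7 cells, Creld2 (−1.62, adjusted p = 0.00310) and Hsp90b1 (−1.47, 0.0245) were lower in mature Gnao1 neurons and Sdf2l1 was no longer called (0.54, 0.329). These alternatives were chosen after seeing the data. With total UMIs as the scaling the median of all genes was 1.17, 7 members were called and 77.5% of calls were higher, against 1200 higher and 705 lower with TMM.

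Across 17 named cell groups, mature Gnao1 neurons ranked first for Calr4, Sdf2l1, Hspa5 and Dnajb11 and last for Calr and Pdia4 by mean CPM. They ranked second for Hsp90b1 and Creld2, after B cells, whose mean rests on the 7 plasma-like cells, for Ero1lb, after immature Gnao1 neurons, and for Canx, after olfactory ensheathing-like cells, with which they overlapped (275 and 181 CPM). Calr was highest in ciliated-like cells (724 CPM on average) and Pdia4 in B cells (177 CPM). The Pdia4 value of B cells rested on 37 UMIs in 9 of 49 cells, with up to 13 in 1 cell. The last rank of mature Gnao1 neurons for Pdia4 rested on 6 UMIs (4.44 CPM on average). Mature Gnai2 neurons (5.27 CPM) and neutrophil-like cells (5.70 CPM) were close to it. Calr4 ranged from 2.72 CPM in monocyte-like cells to 11.3 CPM in progenitor-like cells over the 13 groups outside the neurons, and precursor-like cells that passed no gate held 103 and 119 CPM. All 4 neuron groups were thus above these 13 groups, while the precursor-like cells lay at the level of immature Gnai2 neurons, and 6 clusters without a name were not ranked.

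Over these 17 groups in 2 libraries (34 points that share libraries, and groups of unequal depth), the genes most like Calr4 in log2(CPM + 1), among 6234 with a mean of at least 20 CPM, were Calb2 (Pearson r = 0.957), Dok5 (0.942), Trnp1 (0.942), Fstl5 (0.936) and Scn9a (0.936). Among the members Dnajb11 was closest to Calr4 (0.777) and Calr farthest (−0.698). For Hspa5 the list was led by another member, Sdf2l1 (0.712), then Traf3ip3 (0.711), Spcs2 (0.701), Vmn2r36 (0.650) and Pdia6 (0.649). These correlations describe likeness only.

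The share of cells with at least 1 UMI was read beside the levels. Calr4 was found in 76 of 76 mature Gnao1 cells (exact 95% interval 95.3 to 100%), 87.3% of immature Gnao1, 98.5% of mature Gnai2 and 49.4% of immature Gnai2 cells. In gland cells it was 4.20%, in B cells 2.04% and in macrophage-like cells 2.37% at median depths of 16533, 2367 and 4509 UMIs, a level at which free RNA cannot be told from expression. With every cell thinned to 2158 UMIs, which 356 of 476 gland cells and 29 of 49 B cells reached, the neuron shares were 94.7%, 67.1%, 68.7% and 16.7%, and the gland share 0.562%. The order of the shares was then that of the levels except for immature Gnao1 and mature Gnai2 neurons, whose intervals overlapped. Calr was found in 18.4% of mature Gnao1 cells (10.45 to 28.97) and 70.5% of mature Gnai2 cells (66.4 to 74.3), and in 1.32% and 20.99% after thinning. Pdia4 was found in 6.58% of mature and 50.7% of immature Gnao1 cells, and after thinning in 0 of 76 mature cells, which allows up to 4.74% of cells with a UMI at the thinned depth only, and in 22.9% of immature cells.

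Last, mature Gnao1 neurons were compared by the V2R co-receptor of family C that they express, with 27 cells led by Vmn2r1 and 41 led by Vmn2r2 to Vmn2r7. With edgeR, 0 of 9 members tested were called, and Pdia4 had too few UMIs to test. In that fit 0.374% of 8298 genes were called (0.0723% higher and 0.301% lower), 6 higher and 25 lower in the Vmn2r1 cells (11 and 24 with DESeq2, which also called 0 members), and 500 genes had an unadjusted p under 0.05. With the library as a term 69 genes were called and again 0 members. The 10 genes together took 0.648% and 0.651% of UMIs in the Vmn2r1 cells and 0.820% and 0.769% in the others. The median difference of the 9 was −0.32 against 0.00 for all genes, with Sdf2l1 at −0.47 ± 0.167 (adjusted p = 0.605), Calr4 at −0.40 ± 0.168 (0.764) and Hspa5 at −0.32 ± 0.142 (0.826). Of 110 other ER genes tested 0 were called (edgeR), 23 had a difference above 0 and the median was −0.29, and together they took 2.37% and 2.63% of UMIs in the Vmn2r1 cells against 3.15% and 2.97%. No difference of a single member passed the test.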

How the data were processed

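Whole VNO cells of 2 droplet captures were sequenced for the authors by a service. Cell Ranger 4 was run against mm10, and the authors merged both captures and deposited the raw UMI counts of each gene. For the merge, the depth setting was not given in the sources used here. The authors' notes also name bcl2fastq and Seurat 3.2.3. Here, the filters kept genes found in at least 3 barcodes, and cells that had 200 to 9000 genes with no more than 5% of UMIs from mitochondria (5694 and 4898 cells, medians of 6668 and 6650 UMIs). Called doublets stayed in. Cells were clustered with Seurat 5.3.0 (2000 variable genes without the ER genes, 30 components, resolution 0.8). Clusters were named from markers, and those of neurons were gated by Gnao1 and Gnai2 and by Omp and Gap43 (at least 3 UMIs of a pair, 75% from 1 gene).

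UMIs were summed per group and library and tested with edgeR 4.0.16 (quasi-likelihood, TMM, at least 10 UMIs in a fit, Benjamini-Hochberg adjusted p of 0.05). The 4 neuron groups shared 1 fit, and the gland, B cell and family C comparisons had their own. SE is the log2 difference over the square root of F. DESeq2 1.42.0, R 4.3.3, scipy 1.17.1 and scanpy 1.11.5 were also used. A library number marks 1 capture, so groups were paired by design, and each comparison was also fitted with a term for the library. Over genes, the deviations of the libraries correlated at 0.018 to 0.0972 between the 4 neuron groups and at 0.12 between the family C groups. Libraries of a group differed beyond sampling noise (chi-square per degree of freedom of 1.84 to 9.24).

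The members were fixed by name. Beyond them, named list genes were up to 3 per list and direction with the largest called difference, alike in both libraries. Likeness genes were the first 5 by r. The members and lists were chosen with earlier results of these data known. Scripts were tested on simulated data.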

Additional observations from a re-analysis of the deposited data

Results flagged for a closer look

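The difference between Gnao1 and Gnai2 neurons in Calr4 itself differed between maturity stages. It was 2.92 on the log2 scale among immature and 1.58 among mature neurons, an interaction of −1.33 ± 0.217 (SE, edgeR, adjusted p = 0.0207), with −1.35 in library 1 and −1.31 in library 2. The call was lost in thinned cells (−1.27, adjusted p = 0.0787), with gates at 60% (−1.11, 0.0680) and 90% (−1.09, 0.384) and with groups from clusters alone (−0.54, 0.175).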

How the results depend on the processing

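Of the member differences recomputed under the alternatives, 1287 were counted as unchanged and 69 passed the threshold newly. Of the rest, 20 no longer passed it, 21 changed sign and 5 were counted as moved. Unchanged meant the same direction and side of the threshold where there was a test. It also covers 77 values without library 1 and 77 without library 2, which had no test. Those were held against the spread of the 2 library values, a rule that most values meet by construction. The 5 were 2 values without library 1, 2 without library 2, and Calr between family C groups, which had no adjusted p in DESeq2. The 7 members called between mature Gnao1 and Gnai2 neurons kept their direction and call in all 16 alternatives. Of the 21 changes of sign, all were in differences that had not passed the test, and 3 passed it after the change, which were Creld2 (3.00) and Hsp90b1 (3.51) against B cells without plasma-like cells and Canx against gland cells with total UMIs as the scaling (1.29). Against B cells the sign also changed for Creld2 (0.092) and Hsp90b1 (0.21) with a mitochondrial limit of 10%, for Creld2 (0.43) and Hsp90b1 (0.28) in thinned cells, for Hspa5 (−0.19), Dnajb11 (−0.078) and Ero1lb (0.26) with only plasma-like cells and for Ero1lb (0.18) with total UMIs. Pdia4 changed sign between mature sides with the 10% limit (0.33) and gates at 60% (0.036), Calr between immature sides with gates at 60% (0.025), and with maturity in Gnai2 neurons Creld2 with gates at 90% (0.032) and Calr with the deep cluster (0.22). Further changes were the interaction of Sdf2l1 with gates at 90% (0.64), Canx against gland cells with groups from clusters alone (0.010), and between family C groups Canx without a filter (−0.043) and Hsp90b1 (0.11) and Dnajb11 (0.080) in thinned cells. The cause of the other changes below was not tested. In thinned cells, which hold fewer UMIs, 343 genes were called between mature and 152 between immature sides, 680 genes and 4 members with maturity in Gnao1 and 2117 genes in Gnai2 neurons, 31 genes and 0 members for the interaction, 2377 against gland cells, 1106 against B cells and 19 between family C groups. Without a filter on low counts the counts were 1682 for the mature and 932 for the immature sides, 383 genes and 4 members for the interaction and 155 for family C. For the interaction DESeq2 called 197 genes and 3 members, filterByExpr 2 members, a mitochondrial limit of 10% 2 members, total UMIs 2 members and groups from clusters alone 0 members. Gates at 90% called 180 genes between immature sides, 1681 with maturity in Gnao1 neurons and 38 for the interaction. Adding the unnamed deep cluster gave 1779 genes for the mature sides, 211 genes and 3 members for the interaction, 3013 against B cells and 50 for family C. Pdia4 was then called between mature sides (−1.73, adjusted p = 0.0370) and for the interaction (−3.25, 0.0182). Against B cells RLE factors called 2914 genes, the 10% limit 3751 genes and 7 members, leaving out subclusters of other cell types 3042, total UMIs 3167 genes and 7 members, and leaving out plasma-like cells 9 members. Against gland cells total UMIs called 10 members. DESeq2 split the calls of the mature sides into 507 higher and 267 lower, against 527 and 499. Dnajb11 with maturity in Gnao1 neurons was also lost without doublets (adjusted p = 0.0824), in thinned cells (0.332), without subclusters of other cell types (0.0794), with the deep cluster (0.0865) and with total UMIs (0.165), and Hsp90b1 in thinned cells (0.294).

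With the replicate block, in which the library is a term, 1925 genes were called between mature and 903 between immature sides, 412 genes and 4 members for the interaction and 69 between family C groups. The block changed no other member call than those given in the report. With 1 library left out no residual degrees of freedom remained, so each library's own value stands without a test. The number of members above 0 between family C groups was then 0 to 2. Without doublets no cluster was named B cells, so that comparison has no value there.

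The precision rests on 2 captures and on few basal cells, 76 mature and 71 immature. Genes near the limit of 3 UMIs in a library, such as Pdia4 in mature Gnao1 neurons and Calr4 in B cells, have wide counting intervals. The alternatives on plasma-like cells, on subclusters, on the deep cluster, on library sizes and on total UMIs were chosen after seeing the data.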
